A study of Mus musculus with 2 samples.

Results

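The genes described here encode the non-collagen part of the extracellular matrix: glycoproteins, proteoglycans, basement membrane components and elastic fibre components. They were chosen by name, as 45 listed genes, with earlier results of these data known. Their probes were found through the symbol or the Entrez gene number that the deposited array table gives for each probe. All 45 were on the array, with 88 of its 45281 probes, and the table as a whole named 31165 genes. RNA came from CT26, a mouse colon carcinoma cell line, and was hybridised to Illumina MouseWG-6 v2.0 bead arrays. The control culture was transduced with the empty hairpin vector pLKO.1, and the knockdown culture with pLKO.1 carrying a short hairpin RNA against CDK8, a kinase of the Mediator complex that couples transcription factors to RNA polymerase II. Each group had 1 array, so no test was possible, no value has a replicate error, and "higher" and "lower" compare these arrays only. The labels name neither the hairpin's target site nor a second hairpin, so an effect of CDK8 loss and one of this hairpin or this culture cannot be told apart.

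The matrix holds cells in place and signals to them. Laminins, nidogens, perlecan and agrin build the basement membrane, the thin sheet under epithelia that carcinoma cells cross when they invade. Fibronectin forms fibrils that integrins bind, small leucine-rich proteoglycans such as decorin and biglycan bind collagen and growth factors, and fibrillins, fibulins and elastin form elastic fibres. Syndecans and glypicans carry heparan sulfate chains on the cell surface and present growth factors to their receptors.

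Raw intensities summed to 1.40e+07 for the control and 1.46e+07 for the knockdown. Dim probes peaked at a raw intensity of 88.6 and 88.0, and a probe counted as detected above 94.5 and 93.6 respectively, which are the upper 1% of the background. Pairs of raw intensities are given with the control first throughout. The targeted gene Cdk8 was lower in the library labelled as the knockdown: the 1 of its 3 probes above background had raw values of 992.5 and 317.9, a 3.96-fold difference. Of 8 epithelial markers, Epcam, Krt18, Krt19 and Vil1 were not detected, while Krt8 stood at the detection limit, with 94.1 and 93.7. The other epithelial markers were detected on both arrays at low intensity, Cdx2 with 138 and 107.3, Krt20 with 117.6 and 95.9 and Cdh1 with 101.5 and 98.6. Of 10 fibroblast markers 8 were detected, and of 6 leukocyte markers none.

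Many matrix genes were higher on the knockdown array. Of the 45 genes, 35 were detected on at least 1 array, or 77.8%, beside 52.8% of all genes of the table. Of 74 further matrix genes on the array, described below, 36 were detected, or 48.6%. Any 1 probe sufficed for a gene, and the number of probes per gene was not matched. Of the 35, both arrays detected 30, the knockdown alone 4 and the control alone 1. Of the 16466 detected genes of the table, 9.75% were seen in the knockdown only and 7.57% in the control only. Among the 30, 6 were at least 1.5-fold higher in the knockdown, namely Sdc3, Spon2, Dpt, Nid1, Bgn and Fn1, which is 20.0% against 2.08% of the 13613 genes detected on both arrays. At least 1.5-fold lower were 2, Gpc1 and Lama3, or 6.67% against 2.22%. At least 2-fold higher were 3, Sdc3, Spon2 and Dpt, where the share over all genes was 0.492%. No matrix gene was 2-fold lower, and 0.551% of all genes were. The median difference of the 30 genes, knockdown minus control on the log2 scale, was 0.22, beside -0.0049 over all genes. Of the 30, 22 had a difference above 0, or 73.3%, and 48.8% of all genes did. Since the 45 genes were chosen with earlier results of these data known, these shares only describe the list. The part of that choice in them was not tested.

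**Figure D1:**
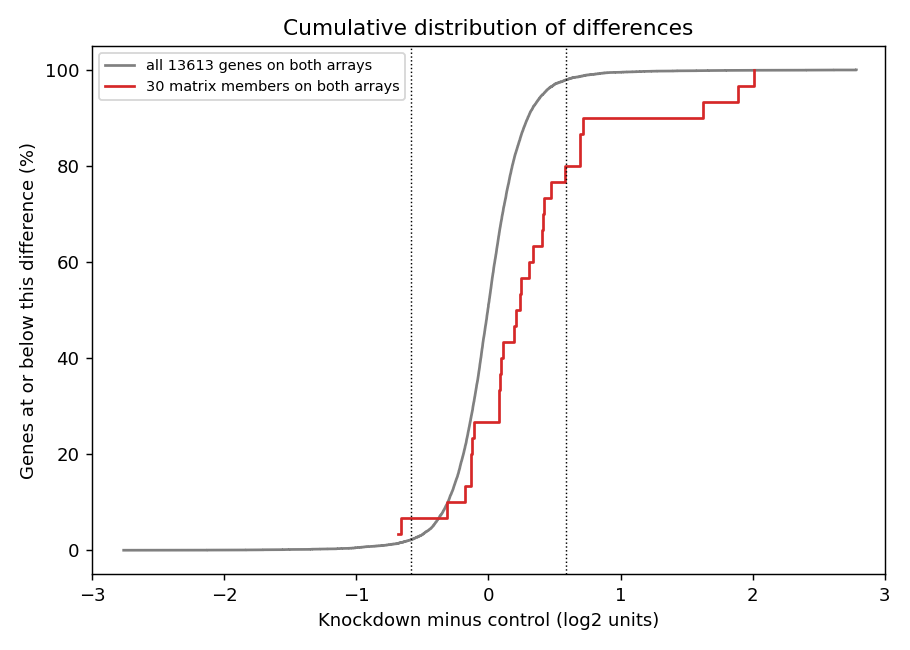
Cumulative share of genes (y axis, percent) at or below each difference (x axis, knockdown minus control in log2 units) for the 30 matrix genes and for all 13613 genes detected on both arrays. Dotted lines mark 1.5-fold in either direction. Around its median of 0.22 the curve of the matrix genes lies to the right. At the lower dotted line it lies above the other curve, with 6.67% of the matrix genes against 2.22% of all genes.

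Genes were next grouped by their mean level. Among the 12 matrix genes with a mean log2 level of 8 or more, 11 were above 0 and Gpc1 alone was below, with a median of 0.22 beside -0.01 over the 4205 genes of such a level. Among the 14 with a level from 5 to 8, 11 were above 0 and the median was 0.32, beside 0.0041 over 6703 genes. The 4 genes under 5, Thbs1, Tnc, Vcan and Fbn1, lay between -0.31 and -0.12, at raw intensities close to background. The Tnc and Vcan means hold probes that passed the limit in the control only, and their probes detected on both arrays gave -0.02 and -0.17. Thbs1 and Fbn1, each with 1 detected probe, were at -0.12 and -0.13. At such intensities no direction is read from these 4 genes. Genes detected on 1 array only, such as the faint Lum, are outside these groups. The only spread that these arrays give is that between the differences of probes of 1 gene, whose pooled SD over 4387 genes was 0.22 log2 units. It holds no variation between cultures or hybridisations, so it is a yardstick of size and not an error of the knockdown difference. Differences above this SD were found for 15 of the 30 genes, where 16.5% of all genes passed it, and differences below minus this SD for 3, where 17.3% did. With probes detected on both arrays alone, a setting chosen after seeing the data, the counts were 15 and 2, since Vcan moved inside the SD. Because the RNA is from a whole culture, fewer cells of a kind and less RNA per cell cannot be told apart in any of these values.

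**Figure D2:**
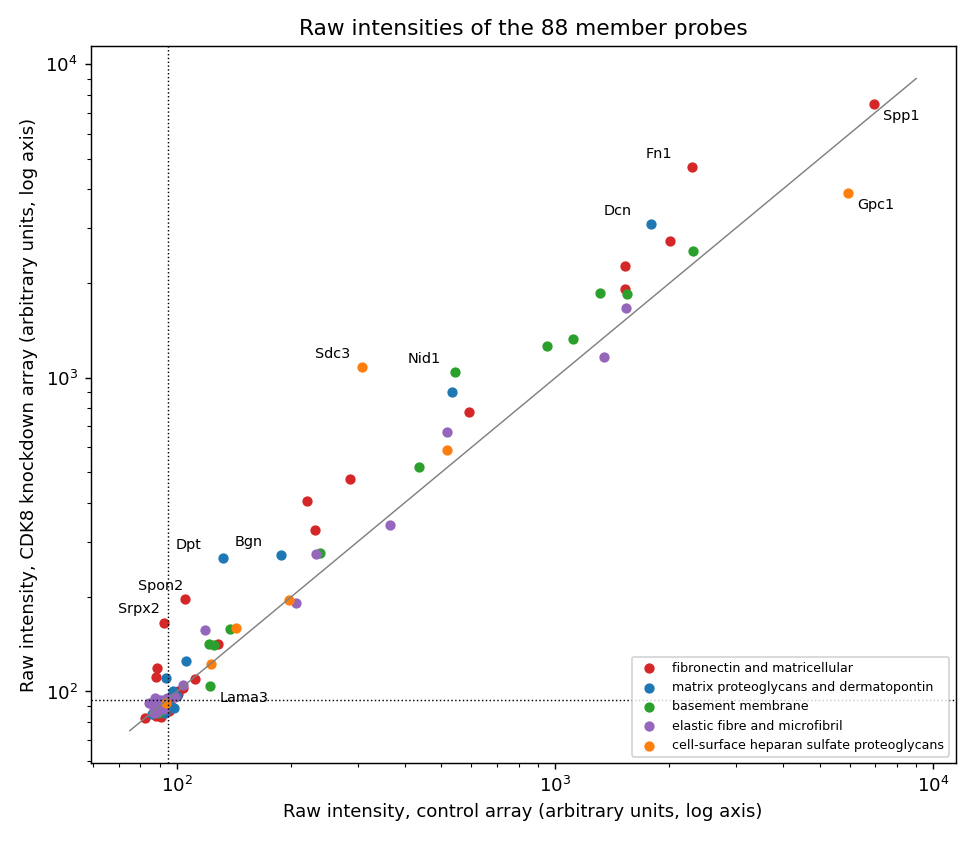
Raw intensity of each of the 88 probes of the matrix genes on the control array (x axis) and the knockdown array (y axis), in arbitrary units on log axes. The solid line marks equal values and the dotted lines the detection limits of 94.5 and 93.6. Most bright probes lie above the line, and that of Gpc1 lies below it.

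Syndecan-3 had the largest difference among the 30 genes as processed here, although Spon2 lay above it under 3 alternatives. Those were an offset of 4, subtraction of the background peak and the authors' processed table, with 2.40, 2.66 and 2.25 for Spon2 and 2.07, 2.08 and 2.05 for Sdc3. Sdc3, which encodes a transmembrane heparan sulfate proteoglycan best known from neurons, read 308.4 for the control and 1080 for the knockdown at its 1 probe. The difference was 2.01 log2 units or 4.03-fold, rank 10 from the top of the 13613 genes. The other syndecans, which share the heparan sulfate chains and a conserved cytoplasmic tail, stayed close to equal. Sdc2 read 518.4 and 588.3, a difference of 0.11, and Sdc4, a focal adhesion component, read 197.5 and 195.5, a difference of -0.11. Sdc1, the main epithelial syndecan, had a mean difference of 0.10 over 2 detected probes that lay at -0.04 and 0.24. Only Sdc3 among the 4 syndecans exceeded 1.5-fold.

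The glypican gene Gpc1 moved the other way. Glypican-1 is a heparan sulfate proteoglycan held in the membrane by a glycolipid anchor. Its probe read 5951.2 for the control and 3879.3 for the knockdown, so it was 1.61-fold lower (-0.69), rank 195 from the bottom. Of the enzymes that build and trim glycosaminoglycan chains, 26 of 35 on the array were detected. Among the 23 on both arrays, Chpf alone, a chondroitin polymerising factor, was at least 1.5-fold higher, at 0.64, with 172.6 and 237.6. That is 4.35%, near the 2.08% of all genes, and none was 1.5-fold lower, where 2.22% of all genes were. The median was 0.08. The heparan sulfate polymerases Ext1 and Ext2 differed by -0.30 and 0.14, the sulfotransferase gene Ndst1 by -0.28 and Ndst2 by 0.42. Heparanase, which cleaves the chains, had a difference of 0.41 (Hpse, 366.8 and 492.1).

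Among fibronectin and the matricellular proteins, the genes read by bright probes were on the higher side or nearly equal. Fibronectin gene Fn1 was read by 4 probes. The brightest read 2302.8 in the control and 4685.3 in the knockdown, the next 286.6 and 476.2, the third 220 and 404.9, and the faintest 111.4 and 109.5. The 3 brighter probes were higher in the knockdown by 0.98, 0.81 and 1.08, and the faint one, near background, differed by -0.09. The mean of all 4 was 0.70 or 1.62-fold, lower than at each of the brighter probes. Sparc, a collagen-binding matricellular glycoprotein, was higher at each of its 3 probes, from 232.2 to 328.3, from 1524.7 to 2269.3 and from 1526.8 to 1915.8. Its mean difference was 0.47. Thbs2 (thrombospondin-2, an inhibitor of blood vessel growth) read 2010.6 and 2735.8, a difference of 0.40. Ecm1 differed by 0.31, with its probes at 0.27 and 0.34.

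Spp1, which encodes the secreted integrin ligand osteopontin, read 6945.9 and 7473.3, a difference of 0.08. Thbs1 and Tnc, the latter encoding tenascin-C, were near background. The detected Thbs1 probe read 100.4 and 97.8, and the brightest of 6 Tnc probes 103.9 and 102.6. Postn (periostin) passed the limit in the control only, at 95.4 against 86.9. Its bound of 1.06-fold was too close to the limit to give a direction. Spon1 was not detected, at 82 and 82.3.

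Spon2 and Srpx2 had faint control values and clear knockdown values. Spon2 encodes spondin-2, a secreted glycoprotein with a role in innate immune recognition and integrin binding. It read 105 and 196.8, and was 3.71-fold higher (1.89), rank 12 from the top. Srpx2, which encodes a secreted sushi-repeat protein whose human form binds the urokinase receptor, was detected in the knockdown only, at each of its 3 probes. These read 92.6 and 165.9, 88.4 and 118.6, and 87.7 and 111.5, so every control value lay below the limit of 94.5 and every knockdown value above 93.6. As processed here, the bounds of the probes were at least 4.15-fold, 2.09-fold and 1.77-fold higher, and that of the gene at least 2.48-fold. These Srpx2 bounds were not computed under other ways of processing, so their sizes hold for this processing only. The size of the Spon2 difference depended on how background was removed and lay between 0.88 and 2.66 under the alternatives.

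**Figure D3:**
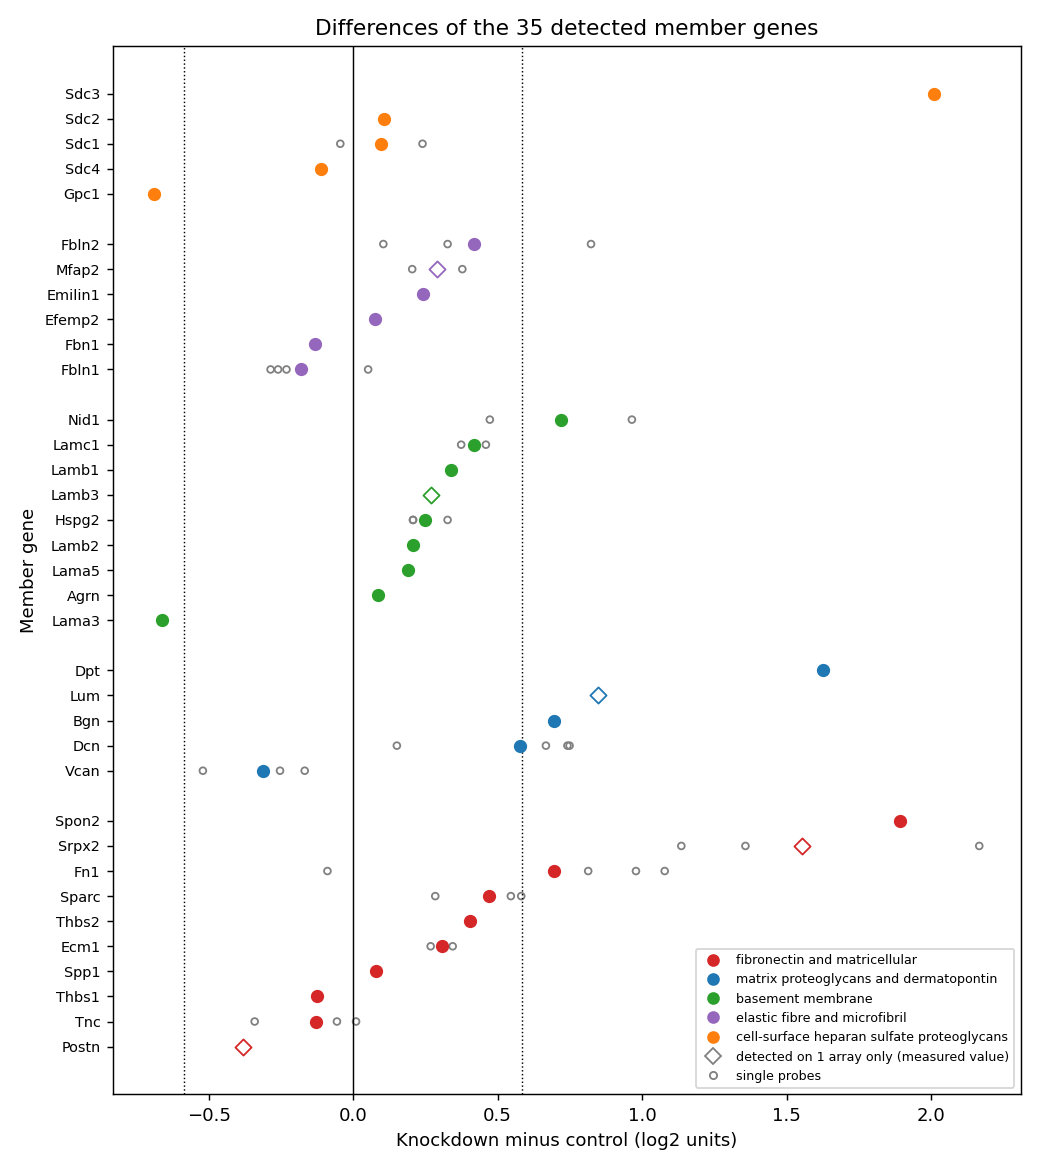
Difference between the arrays (x axis, knockdown minus control in log2 units) for the 35 matrix genes detected on at least 1 array (y axis), grouped by role. Filled circles are genes detected on both arrays, open diamonds genes detected on 1 array only at their measured value, and small grey circles single probes. Dotted lines mark 1.5-fold. Sdc3 at 2.01 and Spon2 at 1.89 lie farthest right, and Gpc1 at -0.69 and Lama3 at -0.66 farthest left.

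Dermatopontin and the small leucine-rich proteoglycan genes biglycan and decorin were higher in the knockdown, and lumican was so at 1 of its 2 faint probes. Dpt, whose product dermatopontin binds decorin and collagen, read 132.2 and 266.6, a difference of 1.63 or 3.09-fold, rank 19 from the top. Bgn (biglycan) read 188.6 and 272.4, a difference of 0.70 or 1.62-fold. Dcn (decorin) was higher at each of its 4 detected probes, which read 1788.2 and 3097.7, 534.7 and 902.3, 105.4 and 125.1, and 97.8 and 100.3. The 2 bright Dcn probes gave 0.74 and 0.75, but the faintest gave 0.15, and the mean of 0.58 or 1.49-fold fell just short of 1.5-fold. The next gene below the limit was Sparc at 0.47, and the nearest one past it was Lama3 at -0.66. Lum (lumican) was detected in the knockdown only, at 110.3 against 93.3, while its other probe read 93.2 and 93.6. As processed here Lum was at least 1.71-fold higher. Its values were close to background, and this bound was not computed under other ways of processing. Vcan, the gene of the large hyaluronan-binding proteoglycan versican, was near background, and no direction is read from it. Its mean was -0.31, its brightest probe read 100.2 and 96.9, and the other detected ones passed the limit in the control only. Fmod (fibromodulin) was not detected.

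Basement membrane genes were mostly a little higher, with Nid1 and Lama3 at the ends. Nid1 encodes nidogen-1, which links laminin to type IV collagen. Its bright probe read 542 and 1040.5, a difference of 0.96, and its faint one 121.3 and 141.8, a difference of 0.47. The mean was 0.72 or 1.65-fold. Nid2 was not detected, at 89.1 and 85.2. The heparan sulfate proteoglycan perlecan (Hspg2) was higher by 0.21, 0.21 and 0.33 at its 3 probes, of which the brightest read 1551.2 and 1854.6. Agrn (agrin), with 2307.7 and 2530, differed by 0.09.

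Laminins are trimers of an alpha, a beta and a gamma chain, and 8 chain genes were among those examined. The gamma-1 chain Lamc1 was higher at both probes, with 1316.7 and 1869 at one probe and 949 and 1266.1 at the other, and a mean difference of 0.42. Lamb1 read 124.9 and 140.4 (0.34), Lamb2 238.1 and 276.7 (0.21), and the alpha-5 chain Lama5 435.8 and 518.5 (0.19). The alpha-3 chain Lama3, part of the epithelial laminin-332, was the exception. It read 122.5 and 104.2, near background, and was 1.58-fold lower on the knockdown array (-0.66). Its partner chain Lamb3 passed the limit in the knockdown only, at 94 against 89.1, too close to it to give a bound. Lama1 and Lama4 were not detected. Of the 5 laminin chains among the 45 genes seen on both arrays, 4 were above 0, and their median was 0.21.

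Elastic fibre and microfibril genes showed no difference of 1.5-fold. Of 11, 5 were detected on both arrays, with differences from -0.18 to 0.42. Fbln2 (fibulin-2) was higher at each of its 3 detected probes, the brightest with 518.4 and 672.1, and the mean was 0.42. This mean holds a probe seen in the knockdown only. Its relative Fbln1, a fibronectin and laminin binder, was lower at its 3 brightest probes, which read 1346.6 and 1164.1, 366.4 and 339.2, and 206.6 and 191.2. Another, faint probe was at 0.05 and the mean at -0.18. Efemp2 (fibulin-4), required for elastic fibre assembly, read 1534.3 and 1675.5, a difference of 0.08, and Emilin1 read 232.4 and 274.6, a difference of 0.24. The fibrillin gene Fbn1 was near background, with 98.7 and 96.1. Mfap2 passed the limit in the knockdown only, with probes at 90.5 and 93.8, and 87.4 and 95. Its bound of 1.01-fold was too close to the limit to give a direction. Eln (elastin), Fbn2, Fbln5, Efemp1 and Mfap5 were not detected.

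Further matrix genes that were not among the 45 were described from lists of 77 glycoproteins, proteoglycans, basement membrane and elastic fibre genes. Of 74 on the array, 26 were detected on both arrays, with a median difference of 0.07. At least 1.5-fold higher were 2, Tnxb and Tinagl1, or 7.69%, and 1 was 1.5-fold lower, Ogn, or 3.85%, beside 2.08% and 2.22% of all genes. Tnxb encodes tenascin-X, which binds collagen fibrils. Its mean was 1.19, with probes from 0.57 to 1.74 and 123 and 184.7 at the brightest. Tinagl1, a basement membrane-associated glycoprotein, read 724.5 and 1135.3 at its brighter probe, and its probes differed by 0.61 and 0.63. Ogn (osteoglycin), a small leucine-rich proteoglycan like decorin, had a mean of -0.60, with 211.6 and 151.4 at its brightest probe. The latent TGF-beta binding proteins Ltbp3 and Ltbp4 differed by 0.10 and 0.52. Of these further genes, 4 were detected in the knockdown only and 6 in the control only. The lysyl oxidase gene Lox passed the limit in the knockdown only, at 94.3. Its bound of 1.01-fold was too close to the limit to give a direction. The largest bound was that of Omd, seen in the control only at 100.2 against 91.3, at least 1.28-fold lower in the knockdown.

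Markers of other cell types moved in both directions. The 9 fibroblast markers on the array summed to a raw intensity of 9752.6 in the control and 11499.8 in the knockdown, over the brightest probe of each gene. Without Vim the sums were 2744.8 and 3369.7. Col1a1 and Col1a2 differed by 1.41 and 0.84, Fap by 0.46, Col3a1 by -0.60, and the receptor gene Pdgfrb by -1.0. Pdgfra had a mean of 0.19, with probes at -0.27 and 0.65, and its brightest probe read 526.3 and 836.3. The bright Vim probe differed by 0.14, and the mean of -0.06 holds a faint probe detected in the control only. S100a4 differed by 0.06. The 8 epithelial markers summed to 801.7 and 744.6, and Krt20 and Cdx2 differed by -0.94 and -0.93 at intensities under 140. The endothelial sums were 544.3 and 553.3, with Kdr alone detected. The leukocyte sums were 540.2 and 545, with all 6 genes at background, and the hepatocyte sums 369.3 and 386.2, with Alb and Ttr not detected. Of the other hepatocyte markers, Apoa1 read 106.2 and 101.6, and Serpina1a passed the limit in the knockdown only, at 103.8 against 89.8. The part of these markers in the matrix differences was not tested.

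The sequence upstream of the genes was taken from RefSeq (assembly GRCm38.p6), whose promoter table held 29 of the 45. Genes at least 1.5-fold higher as processed here, by value or by bound, numbered 8, and 5 of them had an entry. These 5 were picked by their differences and by having an entry. Each is shown as the 250 bases before the annotated start, 5′ to 3′. Capitals mark matches on either strand to 4 motifs. The letters searched for AP-1, a dimer of Fos and Jun family factors, were TGANTCA. Those for TEAD, the partner of the coactivator YAP, were GGAATG. The TATA box was searched as TATAAA. The GC box, bound by Sp family factors, was searched as GGGCGG. Adjoining GC box matches overlap in Bgn.
Sdc3, chr4:130792287-130792536, plus strand: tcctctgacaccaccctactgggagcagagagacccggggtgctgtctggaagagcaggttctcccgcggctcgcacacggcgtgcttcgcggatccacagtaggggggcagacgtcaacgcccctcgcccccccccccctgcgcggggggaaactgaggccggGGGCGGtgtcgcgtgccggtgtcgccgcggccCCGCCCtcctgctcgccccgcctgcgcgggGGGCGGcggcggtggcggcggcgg
Dpt, chr1:164796413-164796662, plus strand: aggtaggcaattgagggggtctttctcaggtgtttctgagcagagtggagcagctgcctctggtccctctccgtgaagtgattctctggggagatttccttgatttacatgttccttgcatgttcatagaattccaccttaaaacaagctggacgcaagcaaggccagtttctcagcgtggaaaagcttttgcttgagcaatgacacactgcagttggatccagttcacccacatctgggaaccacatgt
Srpx2, chrX:133908175-133908424, plus strand: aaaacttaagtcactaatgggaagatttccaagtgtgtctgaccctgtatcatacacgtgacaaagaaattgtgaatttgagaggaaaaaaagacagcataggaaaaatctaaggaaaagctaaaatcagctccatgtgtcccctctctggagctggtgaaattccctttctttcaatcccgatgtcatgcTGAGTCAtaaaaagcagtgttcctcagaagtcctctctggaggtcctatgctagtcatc
Nid1, chr13:13437352-13437601, plus strand: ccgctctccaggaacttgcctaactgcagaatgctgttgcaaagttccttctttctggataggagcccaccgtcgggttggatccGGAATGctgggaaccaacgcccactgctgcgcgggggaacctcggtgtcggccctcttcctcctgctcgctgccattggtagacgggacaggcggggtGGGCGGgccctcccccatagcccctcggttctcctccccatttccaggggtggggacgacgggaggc
Bgn, chrX:73483351-73483600, plus strand: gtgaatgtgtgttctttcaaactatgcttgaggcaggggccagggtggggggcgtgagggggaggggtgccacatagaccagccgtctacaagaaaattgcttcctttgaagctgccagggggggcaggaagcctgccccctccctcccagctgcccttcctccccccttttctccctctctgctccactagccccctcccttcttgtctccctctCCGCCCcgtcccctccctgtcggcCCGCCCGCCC

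No motif was shared by all 5. The GC box was found in Sdc3, Bgn and Nid1, in 3 copies each for the first 2 of these and 1 copy for Nid1. It was in 59.0% of the 39 promoter entries of the matrix genes and in 32.7% of all 32851 entries. Srpx2 alone held the AP-1 letters, starting 59 bases before the start, and these were in 7.69% of the matrix entries and 6.75% of all. Nid1 alone held the TEAD letters, present in 7.69% and 12.6%. The TATA box letters were in none of the 5, and in 15.4% and 12.4%. Dpt held none of the 4 motifs. Such matches describe letters in a window and say nothing of binding.

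The 8 genes beyond 1.5-fold on both arrays were set against 11 other ways of processing, of which that with probes detected on both arrays alone was added after seeing the data. All 8 kept their direction wherever they were detected on both arrays. Sdc3, Dpt, Fn1 and Gpc1 stayed past 1.5-fold under all 11, with Sdc3 between 1.74 and 2.08 and Gpc1 between -0.76 and -0.68. Spon2 did so under the 10 that gave it a value on both arrays, although its size, between 0.88 and 2.66, had the widest range of the 8. Nid1 passed 1.5-fold under 10 of the 11 and Bgn under 9. Lama3 lay between -1.11 and -0.24 and passed 1.5-fold under 8 of the 10 alternatives that gave it a value.

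**Figure D4:**
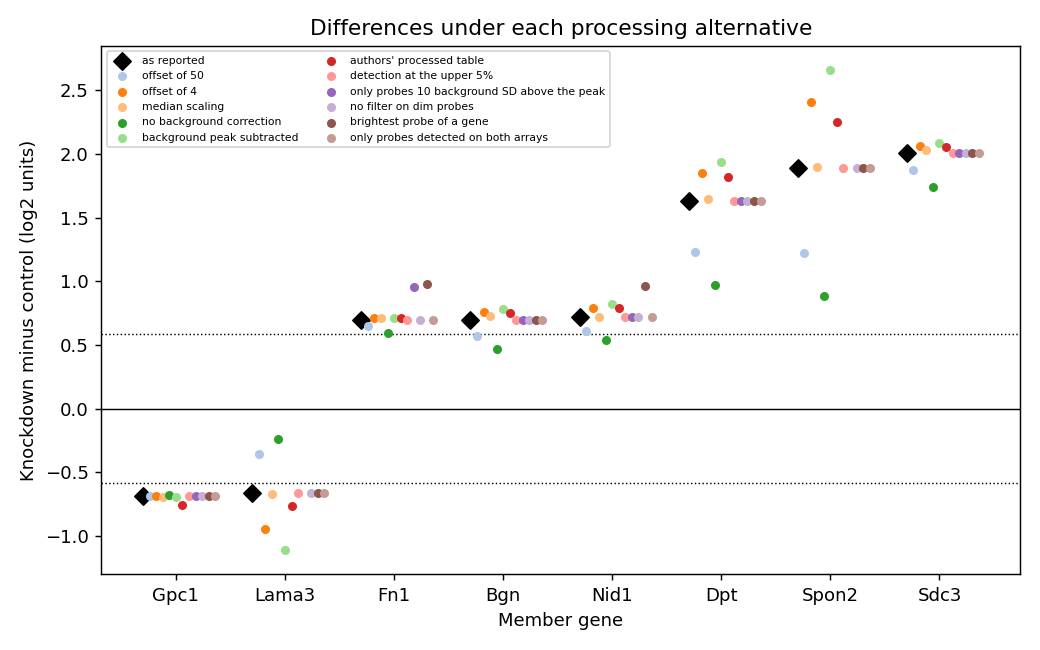
Difference (y axis, knockdown minus control in log2 units) of the 8 matrix genes at least 1.5-fold apart (x axis), as reported (black diamonds) and under each processing alternative (coloured points). Dotted lines mark 1.5-fold. Sdc3, Spon2, Dpt, Fn1 and Gpc1 stay beyond the lines wherever they have a value, and the Lama3 points spread from -1.11 to -0.24.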

How the data were processed

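Total RNA of 2 CT26 cultures was amplified to biotin-labelled cRNA, per the labels' protocols. The deposited table holds raw intensity values, exported with GSGX 1.9.0 with neither normalization nor background subtraction, per the file headers. It has no detection p-values or bead errors. The authors' processed intensity table is linear, with medians of 3.4 and 29.8% of values below 0. How it was made and centred is not given in the sources used here, so it served as an alternative only.

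Background was the peak of each array's dim probes, with its SD (2.55 and 2.48) from the mirrored lower side. Probes past its upper 1%, a lenient limit, counted as detected. Normexp correction (limma 3.58.1, R 4.3.3) was followed by an offset of 16, quantile normalization and log2. The offset draws faint differences towards 0. A gene is the mean of the probes that either array detected, and for Tnc, Vcan and Fbln2 this includes probes seen on 1 array. A gene seen on 1 array is given as a bound, against its own value or the other array's lowest detected value, whichever was higher. Member probes came by Entrez gene number (67) or symbol (21), with symbols updated through RefSeq for 29586 of 31508 numbered probes. No source used here names a build for the probes. The steps were tested on simulated data in which only probes well above background were changed, so changes of faint genes were not covered.

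Members and lists were chosen with earlier results of these data known. Named were members at least 1.5-fold apart or detected on 1 array, the 3 with the highest log2 level of each role, and listed genes past 1.5-fold. Other named genes were added as examples after their values were seen. With 1 array a group there was no test, and precision is limited by the number of arrays.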

Additional observations from a re-analysis of the deposited data

How the results depend on the processing

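Over the 11 alternatives, the count of matrix genes at least 1.5-fold higher lay between 4 and 7 and their median difference between 0.11 and 0.28. The count at least 1.5-fold lower was 1 in place of 2 with an offset of 50, with no background correction and with probes at least 10 background SD above the peak only, and it was 3 with an offset of 4. With the offset of 50 and without background correction Lama3 fell under 1.5-fold, and the filter on bright probes left it without a value on both arrays. No alternative changed the direction of a gene among the 45 that was past 1.5-fold on both arrays. Single-gene values of Srpx2, Lum and the genes outside the 45 were not computed under the alternatives. Of the single-gene values under the alternatives, 189 lay within the SD between probes of the reported value and 18 did not. Without background correction Bgn and Nid1 were at 0.47 and 0.54, under 1.5-fold. Bgn was also under it with the offset of 50, at 0.57. Dcn passed 1.5-fold under 5 of 11 alternatives. The share of all genes at least 1.5-fold higher also depended on the processing and lay between 0.727% and 4.28%. No paired analysis was possible because each group had 1 array. Faint genes have uncertain sizes, since the floor was read from the same arrays.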
